A study of Helianthus annuus with 12 samples.

Results

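Pentatricopeptide repeat (PPR) genes were followed in developing seeds of sunflower (Helianthus annuus), where 176 of the 48882 genes with expression values were taken as members of the family. A gene was a member when the description of its best database match names a pentatricopeptide repeat and its level was at least 1 FPKM in 3 or more of the 12 libraries. FPKM scales the fragments of a gene by its length and by the mapped fragments of the library, so it can be compared between genes of unequal length. The words matched 300 genes of the deposited annotation, 278 of these had expression values, and the other 102 stayed under the level asked for. The 16 members that reached 1 FPKM in exactly 3 libraries had mean levels of 0.625 to 2.62 FPKM, and the 9 matching genes that reached it in exactly 2 libraries had 0.439 to 0.764 FPKM. All differences below are on the log2(FPKM + 1) scale with their standard error, a scale that compresses the changes of genes near 0.

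The seeds came from 4 groups of 3 libraries each: cultivar 86-1 at 27 days after flowering (DAF), 86-1 at 17 DAF, cultivar L-1-OL-1 at 27 DAF and L-1-OL-1 at 17 DAF. The series sets seeds with high and with low oleic acid content side by side, at a stage of fast oleic acid accumulation (17 DAF) and at a later one where its level changed little. The labels do not say which cultivar is the high one, name no treatment or transgene, and describe the tissue as seed. Whether libraries of one group are different plants is not stated; if not, the p-values below cover technical spread alone. In whole seeds, fewer cells of a type and less RNA per cell cannot be told apart.

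PPR proteins are built of a short motif repeated in tandem, and each repeat contacts a single base of RNA. Flowering plants carry far more such genes in the nucleus than animals do, and most of their products enter mitochondria or plastids. There they bind single transcripts and take part in their splicing, editing, end processing, stabilisation and translation. Mutants of single PPR genes often have defective embryos or endosperm in Arabidopsis and maize, and many restorers of cytoplasmic male sterility, which hybrid seed production of sunflower relies on, are PPR proteins in other crops.

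The descriptions of all 176 members name the repeat, and 88 of them read "putative pentatricopeptide repeat (PPR) superfamily protein". The match behind a description covered a median of 568 aligned residues (65 to 1451), and it was identical over its length for 132 members. Only 14 descriptions give an Arabidopsis locus, 4 carry the word chloroplastic and 3 the word mitochondrial, so the organelle of the other 169 is not known from the annotation. The authors had added 15 of the members to the gene set (identifiers with newGene), and 22 members share their best match with another member, in 11 pairs. Reads that fit both members of such a pair may have been split between them, by a rule that the labels do not give, so the level of each is uncertain.

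Most members were expressed at low levels. The median of their mean levels was 2.12 FPKM against 5.10 FPKM over the 30020 genes tested, and 12 members, or 6.82%, averaged at least 10 FPKM, against 31.3% of all tested genes. A level of at least 1 FPKM in all 12 libraries was seen for 71 members. The summed level of the family was 463 ± 115 FPKM in 86-1 at 27 DAF, 502 ± 119 in 86-1 at 17 DAF, 850.0 ± 55.1 FPKM in L-1-OL-1 at 27 DAF and 495 ± 99.3 FPKM in L-1-OL-1 at 17 DAF (SD, n = 3 each). The family took 0.0547% to 0.0863% of the FPKM total in the libraries of 86-1 at 27 DAF and 0.0568% to 0.0875% in those of 86-1 at 17 DAF. In L-1-OL-1 its share was 0.128% to 0.149% at 27 DAF and 0.0673% to 0.0957% at 17 DAF. The 3 libraries of L-1-OL-1 at 27 DAF stood above the other 9, whose ranges overlapped.

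The median member had 1.29, 1.60 and 2.11 FPKM in replicates 1, 2 and 3 of 86-1 at 27 DAF and 1.30, 2.0 and 1.83 FPKM in those of 86-1 at 17 DAF. In L-1-OL-1 it had 2.78, 3.23 and 2.75 FPKM at 27 DAF and 1.31, 1.38 and 2.04 FPKM at 17 DAF. The number of members at 1 FPKM or more was 104 to 142 at 27 DAF and 103 to 145 at 17 DAF in 86-1, and 155 to 166 at 27 DAF and 106 to 129 at 17 DAF in L-1-OL-1. For 132 of the 176 members the highest group mean was that of L-1-OL-1 at 27 DAF, for 29 that of 86-1 at 17 DAF, for 8 that of 86-1 at 27 DAF and for 7 that of L-1-OL-1 at 17 DAF.

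**Figure D1:**
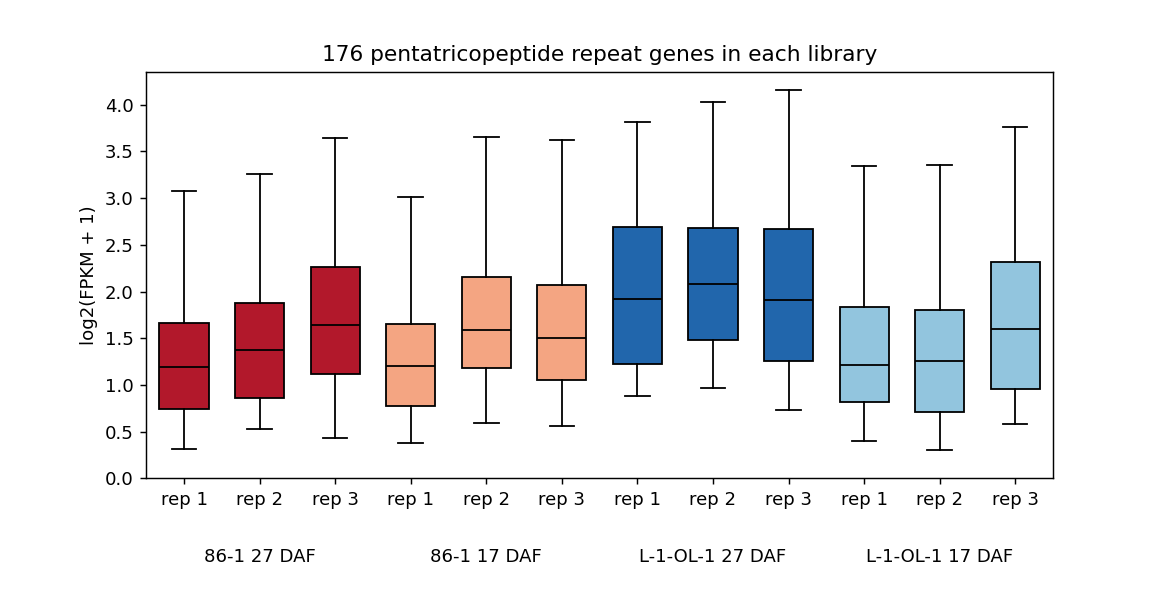
Levels of the 176 PPR genes in each of the 12 libraries, as log2(FPKM + 1) on the vertical axis. Boxes span the quartiles with the median as a line, and whiskers run from the 5th to the 95th percentile. The 3 libraries of L-1-OL-1 at 27 DAF have the highest medians (2.75 to 3.23 FPKM), and the medians of the other 9 lie between 1.29 and 2.11 FPKM.

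The libraries differed in make-up beyond this family. Seed storage protein genes (41 genes) took 10.4% to 34.4% of the FPKM total in 86-1 at 27 DAF, 9.22% to 31.5% in 86-1 at 17 DAF, 0.852% to 2.75% of it in L-1-OL-1 at 27 DAF, and from 0.963% up to 31.0% in the libraries of L-1-OL-1 at 17 DAF. Late embryo genes (66, mostly late embryogenesis abundant proteins) took 2.29% to 4.20% at 27 DAF and 0.355% to 0.568% at 17 DAF in 86-1, and 5.21% to 7.5% at 27 DAF and 0.545% to 4.14% at 17 DAF in L-1-OL-1. Counts of these genes called by the limma test described below went another way in 2 comparisons. In L-1-OL-1 18 (27.3%) were called higher at 27 than at 17 DAF and 25 (37.9%) lower, against 20.4% and 22.3% of all tested genes. At 27 DAF 19 (28.8%) were called higher in 86-1 and 12 (18.2%) lower, against 21.2% and 27.1%. Cell division genes (237) took 0.435% to 0.644% at 27 DAF and 0.832% to 1.97% at 17 DAF in 86-1, and 0.388% to 0.484% at 27 DAF and 0.632% to 1.13% at 17 DAF in L-1-OL-1. Genes of the hull and secondary wall (41) took 0.0428% to 0.0622% at 27 DAF and 0.0721% to 0.126% at 17 DAF in 86-1, and 0.0238% to 0.0336% at 27 DAF and 0.0461% to 0.0853% at 17 DAF in L-1-OL-1. Listed at 0 in all 3 libraries of L-1-OL-1 at 27 DAF were 11 of these, 30 cell division genes and 5 storage genes. Cuticle and wax genes (16) took 0.0134% to 0.0348% over all libraries. The libraries of L-1-OL-1 at 17 DAF were the least alike: across genes, replicate 1 had a mean r of 0.822 with the other 2 of its group, and the values of the other 11 libraries were 0.864 to 0.965. In replicates 1, 2 and 3 of that group storage genes took 31.0%, 18.5% and 0.963% of the FPKM total, and late embryo genes 0.545%, 1.52% and 4.14%. The storage share of replicate 3 thus lay inside the range of L-1-OL-1 at 27 DAF, and its late embryo share lay below that range. FPKM gives no read numbers, so the depth is unknown and no counting interval can be given; FPKM totals were 605655 to 683903 per library.

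The first question was what happened to the family between the stages in L-1-OL-1. Far more PPR genes were higher at 27 DAF than lower: 160 of the 176 had a positive difference between 27 and 17 DAF, against 47.8% of all tested genes, and the median difference was 0.54 against -0.00125. By limma with Benjamini-Hochberg adjustment over all 30020 tested genes, 66 members were called higher at 27 DAF (adjusted p under 0.05) and 0 lower. Over all tested genes 20.4% were called higher and 22.3% lower, so the share of members called higher was above the background and the share called lower was below it. At an unadjusted p under 0.05 by limma, 90 members were higher and 1 was lower. These 91 of 176 compare with 15398 of 30020 tested genes in either direction, a similar share, so only the direction set the members apart. The members' median stayed between 0.47 and 0.78 above that of all tested genes under all alternatives run.

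The count of members called depended on 1 library of L-1-OL-1 at 17 DAF: without replicate 2 it was 38 (21.6% of members against 14.6% of all tested genes), and without any other single library it stayed within 1.5 times of 66. With replicate 1 alone standing for that group 56 members were called higher and 0 lower, against 24.0% and 17.2% of all tested genes, an alternative chosen after the data were seen. Of the 66 members 9 reached 1 FPKM in libraries of L-1-OL-1 at 27 DAF alone, so that they became members through the group where they are high. The shares of storage, late embryo, cell division and wall genes given above moved between the same groups, and their part in this result was not tested.

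gene51880 had the largest difference among the members that the naming rule admits. Its level was 7.24, 5.43 and 6.36 FPKM in replicates 1 to 3 of L-1-OL-1 at 27 DAF and 0, 0.492 and 0.841 FPKM at 17 DAF. It rose by 2.38 ± 0.27 (adjusted p = 6.01e-05), and no library of one stage overlapped the other. gene69864, second of all members by mean level, had 51, 69 and 67.4 FPKM at 27 DAF and 13.1, 10.3 and 16.7 FPKM at 17 DAF. It rose by 2.15 ± 0.30 (adjusted p = 0.000195) and alone supplied a mean of 62.5 FPKM of the summed 850.0 FPKM of the family at 27 DAF. gene26573 had 16.1, 15.1 and 16.9 FPKM at 27 DAF and 3.36, 1.87 and 8.55 FPKM at 17 DAF, a difference of 1.79 ± 0.39 (adjusted p = 0.00348). Its 27 DAF libraries were close together, while those of 17 DAF spread widely with replicate 3 highest.

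Other members rose as well. gene35001 had 9.93, 7.79 and 9.25 FPKM at 27 DAF and 1.26, 2.16 and 2.84 FPKM at 17 DAF (1.72 ± 0.27, adjusted p = 0.000459). gene57258 had 7.21, 8.98 and 7.75 FPKM at 27 DAF and 1.51, 1.39 and 2.8 FPKM at 17 DAF (1.66 ± 0.25, adjusted p = 0.000357). In both genes every library at 27 DAF lay far above the highest at 17 DAF. gene22559 averaged 6.83 ± 2.0 FPKM at 27 DAF and 1.49 ± 0.929 FPKM at 17 DAF (SD, n = 3 each; 1.68 ± 0.34), and gene53186 averaged 2.67 ± 0.955 FPKM at 27 DAF and 0.193 ± 0.267 FPKM at 17 DAF (1.61 ± 0.25). gene53186 was among the lowest members, and with a pseudocount of 0.25 in place of 1 its difference was 2.82. The calls of these 7 genes were made in every fit that left out 1 library, as were those of 38 of the 66 members called higher.

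**Figure D2:**
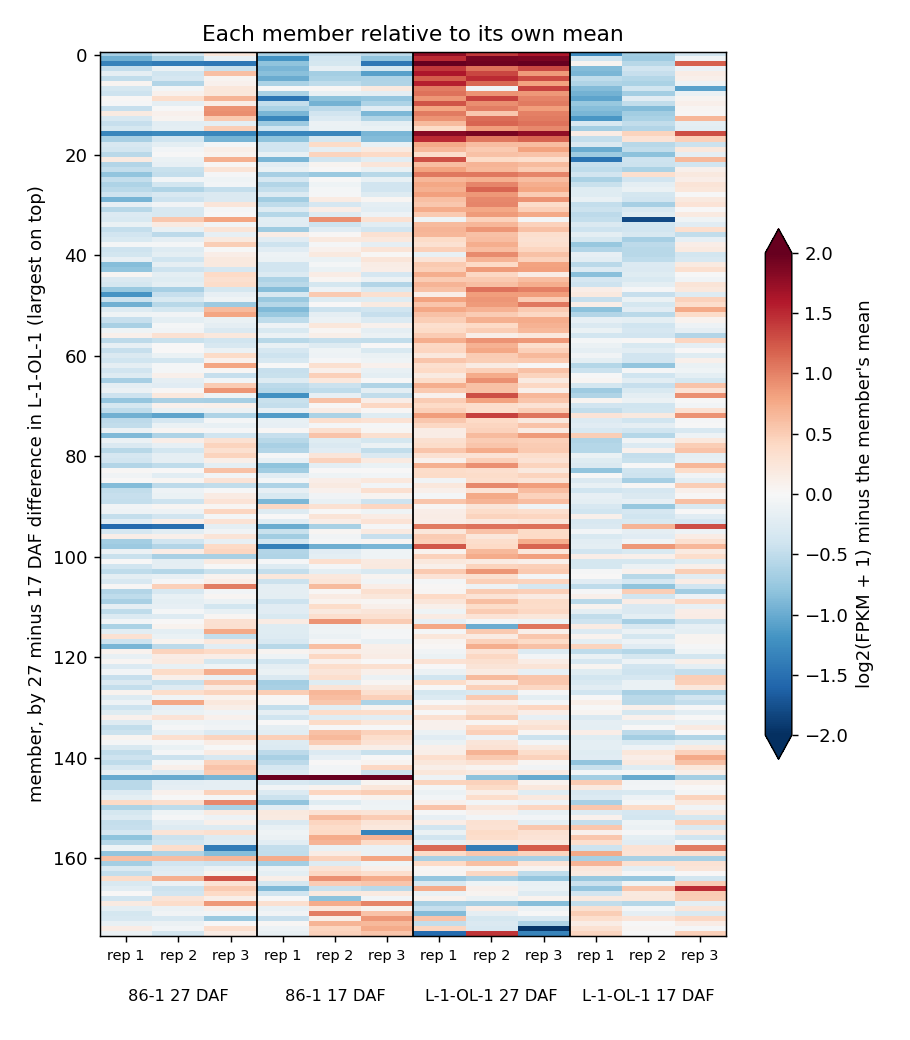
Each of the 176 PPR genes (rows) in the 12 libraries (columns), as log2(FPKM + 1) minus the gene's own mean over the libraries, with red above and blue below the mean. Rows are ordered by the difference between 27 and 17 DAF in L-1-OL-1, which is positive for 160 of them; the single dark row in the libraries of 86-1 at 17 DAF is gene36068.

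In 86-1 the stages differed in few members. Of the 176, 3 were called higher at 27 DAF and 2 lower, against a background of 4.62% and 14.1% of all tested genes, and the median difference was -0.11 against -0.20 for all tested genes. The direction of the median is not fixed by these data: 76 members were above 0 with FPKM as deposited, 103 with median-of-ratios scaling and 114 with quantile normalization, and the calls were 22 higher and 2 lower and 25 higher and 1 lower under these scalings. Called higher were thus 12.5% of members against 9.65% of all tested genes with median-of-ratios scaling and 14.2% against 11.3% with quantile normalization, both near the background. Median-of-ratios scaling moved the median of all tested genes in this comparison to -0.03, and quantile normalization moved it to 0.000272. At an unadjusted p under 0.05 by limma, 7 members were higher and 13 lower. These 20 of 176 compare with 9291 of 30020 tested genes in either direction, a larger share. Without replicate 1 of 86-1 at 17 DAF 10 members were called lower, 5.68% against 21.2% of all tested genes. Without replicate 1 of L-1-OL-1 at 17 DAF 5 were, 2.84% against 17.5%. Leaving out single libraries gave 1 to 4 members called higher, against 2.84% to 6.61% of all tested genes.

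gene46025 rose in both cultivars. It had 9.28, 11.8 and 15.2 FPKM in 86-1 at 27 DAF and 2.69, 4.68 and 4.91 FPKM in 86-1 at 17 DAF, a difference of 1.37 ± 0.32 (adjusted p = 0.0119). In L-1-OL-1 it had 17.5, 24.7 and 18.9 FPKM at 27 DAF and 3.85, 7.59 and 9.48 FPKM at 17 DAF, a difference of 1.48 ± 0.32 (adjusted p = 0.00352). In each cultivar the 3 libraries of one stage lay apart from those of the other, and the call was made in every fit without 1 library. gene1605 had a similar pattern, with 2.88, 2.65 and 5.52 FPKM in 86-1 at 27 DAF and 0.824, 1.64 and 0.835 FPKM at 17 DAF (1.13 ± 0.32, adjusted p = 0.0265). In L-1-OL-1 gene1605 averaged 5.31 ± 1.13 FPKM at 27 DAF and 1.47 ± 0.88 FPKM at 17 DAF (SD, n = 3 each; 1.4 ± 0.32, adjusted p = 0.00428).

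The third member called higher in 86-1 was gene29042, described by the Arabidopsis locus At3g04760 and the word chloroplastic. It had 2.13, 2.0 and 3.61 FPKM at 27 DAF and 0.375, 0.998 and 1.21 FPKM at 17 DAF (0.94 ± 0.27, adjusted p = 0.031). The calls of gene1605 and gene29042 in 86-1 were each lost in 4 of the 12 fits without 1 library, with adjusted p up to 0.0998 for gene1605 without replicate 3 of 86-1 at 17 DAF and up to 0.105 for gene29042 without replicate 3 of 86-1 at 27 DAF. Fitting only the 6 libraries of 86-1 also lost that of gene29042 (adjusted p = 0.0591). The members called lower in 86-1 were gene36068, whose values follow below, and gene39359, which was chosen for the text after its values were seen. gene39359 had 0.37, 0.493 and 0.487 FPKM at 27 DAF and 0.723, 2.53 and 1.58 FPKM at 17 DAF (-0.79 ± 0.24, adjusted p = 0.0404), and 9 of the 12 fits without 1 library lost that call.

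**Figure D3:**
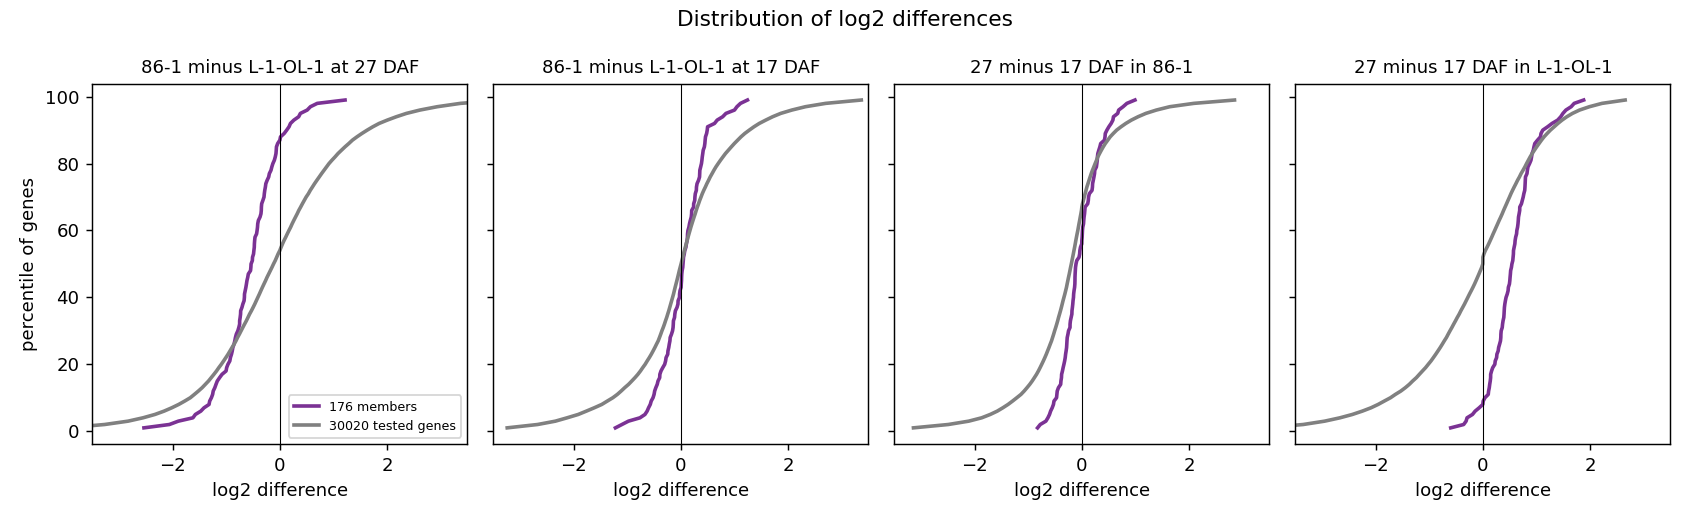
Percentile of genes (vertical axis) against log2 difference (horizontal axis) for the 176 PPR genes and the 30020 tested genes in the 4 comparisons of groups, between the 1st and the 99th percentile. The PPR curve is shifted to the left of 0 for 86-1 minus L-1-OL-1 at 27 DAF (median -0.54) and to the right of 0 for 27 minus 17 DAF in L-1-OL-1 (median 0.54), and lies close to 0 in the other comparisons (medians 0.04 and -0.11).

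At 27 DAF the cultivars were compared, with the same libraries of L-1-OL-1 at 27 DAF as in the stage comparison of that cultivar. Most called PPR genes were lower in 86-1, with 73 members called lower and 5 higher, against a background of 27.1% and 21.2% of all tested genes. Only 24 of the 176 members had a positive difference, against 45.9% of all tested genes, and the median difference was -0.54 against -0.12. With the median over all tested genes subtracted, the members' median lay between -0.60 and -0.38 under all alternatives run, median-of-ratios scaling included, which moved the median of all genes to 0.07. Leaving out replicate 1 of 86-1 at 27 DAF left 47 members called lower (26.7% against 20.1% of all tested genes). Without replicate 2 of 86-1 or replicate 3 of L-1-OL-1 at 27 DAF 52 were (29.5%, against 21.8% and 22.3%). Without replicate 2 of L-1-OL-1 at 27 DAF 56 were (31.8% against 21.4%). Without any other single library the count stayed within 1.5 times of 73. At this stage storage genes had 10.4% to 34.4% of the FPKM total in 86-1 against 0.852% to 2.75% in L-1-OL-1, whose part in the result was not tested. Of the 73 members 13 reached 1 FPKM in libraries of L-1-OL-1 alone, and of the 5 called higher 4 did so in libraries of 86-1 alone.

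With a pseudocount of 1 the largest difference at 27 DAF was that of gene26573; with 0.25 it was that of Helianthus_annuus_newGene_10818 (-4.97, against -4.24 for gene26573). gene26573 had 0.669, 0.595 and 0.566 FPKM in 86-1 and 16.1, 15.1 and 16.9 FPKM in L-1-OL-1, a difference of -3.4 ± 0.39 (adjusted p = 1.93e-05). gene69864 had 8.58, 11 and 15.8 FPKM in 86-1 and 51, 69 and 67.4 FPKM in L-1-OL-1 (-2.34 ± 0.30, adjusted p = 4.43e-05). gene21753 had 0.641, 0.545 and 1.09 FPKM in 86-1 and 4.72, 7.25 and 5.71 FPKM in L-1-OL-1 (-1.97 ± 0.29, adjusted p = 0.000131). In these 3 genes every library of 86-1 was below every library of L-1-OL-1. gene75851 averaged 0.879 ± 0.342 FPKM in 86-1 and 5.99 ± 1.12 FPKM in L-1-OL-1 (SD, n = 3 each; -1.9 ± 0.28, adjusted p = 0.000151). gene51880 averaged 1.06 ± 0.668 FPKM in 86-1 and 6.34 ± 0.906 FPKM in L-1-OL-1 (-1.87 ± 0.27, adjusted p = 0.000134). All 5 calls were made in every fit without 1 library, as were 46 of the 73 calls of lower members.

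At 17 DAF the cultivars differed in few members: 10 were called higher in 86-1 and 5 lower, against a background of 15.6% and 11.4% of all tested genes. The median difference was 0.04 against 0.00466 for all tested genes, and 101 of the 176 members were above 0, against 50.3% of all tested genes. Of the called members 5 reached 1 FPKM in libraries of 86-1 alone and 2 in libraries of L-1-OL-1 alone, so that their membership rests on that cultivar. The split of the calls turned on the scaling, with 17 higher and 17 lower after median-of-ratios scaling and 16 higher and 19 lower after quantile normalization. Over all tested genes 16.3% were higher and 14.7% lower with the first and 16.4% and 14.8% with the second, so the members stayed below the background in both directions (9.66% each way, and 9.09% and 10.8%). The split also turned on single libraries: 18 were called higher without replicate 1 of 86-1 at 17 DAF (10.2% against 19.0% of all tested genes), and 14 were called lower without replicate 1 of L-1-OL-1 at 17 DAF (7.95% against 21.7%). With that replicate alone for its group 3 were called higher and 2 lower, against 7.22% and 5.33% of all tested genes.

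The largest difference at 17 DAF was that of gene36068, which was found almost only in 86-1 at 17 DAF. It had 6.81, 11.6 and 11.5 FPKM in the 3 libraries of that group and 0.259, 0 and 0.25 FPKM in L-1-OL-1 at 17 DAF, a difference of 3.2 ± 0.26 (adjusted p = 4.45e-06). At 27 DAF it had 0, 0 and 0.0542 FPKM in 86-1 and 0.884, 0.143 and 0 FPKM in L-1-OL-1. Each of the other 9 libraries was below 1 FPKM. Its stage difference in 86-1 was -3.39 ± 0.26 (adjusted p = 2.45e-05), and with a pseudocount of 0.25 it was -5.22. It reached 1 FPKM only in that group, so that its membership rests on its level there. Its annotation, 469 residues identical to a sunflower protein described as a putative PPR superfamily protein, gives no target or organelle.

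Other members were also higher in 86-1 at 17 DAF. gene57064 had 1.84, 3.75 and 2.62 FPKM in 86-1 and 0.905, 0.605 and 0.888 FPKM in L-1-OL-1 (1.03 ± 0.22, adjusted p = 0.00414). gene59743 had 2.12, 1.92 and 2.18 FPKM in 86-1 and 0.896, 0.399 and 0.913 FPKM in L-1-OL-1 (0.84 ± 0.19, adjusted p = 0.00601). In both genes the groups did not overlap and every fit without 1 library made the call, but with replicate 1 alone for L-1-OL-1 at 17 DAF adjusted p was 0.0934 and 0.122. Among the members lower in 86-1, gene21753 had 0.477, 1.08 and 1.72 FPKM in 86-1 and 2.88, 2.69 and 5.0 FPKM in L-1-OL-1 (-1.12 ± 0.29, adjusted p = 0.0116, 0.0577 when only the 6 libraries of 17 DAF were fitted and 0.157 with replicate 1 alone for L-1-OL-1). gene46083 and gene49121, named after their values were seen because the count is small, differed by -0.76 ± 0.21 and -0.65 ± 0.16 (adjusted p = 0.0181 and 0.0103). The call of gene46083 was lost without replicate 1 of 86-1 at 17 DAF (adjusted p = 0.0541) and when only the libraries of 17 DAF were fitted (0.0786), and that of gene49121 with replicate 1 alone for L-1-OL-1 (0.185). gene49121 reached 1 FPKM in libraries of L-1-OL-1 alone. gene49121 averaged 0.104 ± 0.0305 FPKM in 86-1 and 0.746 ± 0.318 FPKM in L-1-OL-1 at 17 DAF, and 0.142 ± 0.0498 FPKM in 86-1 and 1.79 ± 0.179 FPKM in L-1-OL-1 at 27 DAF (SD, n = 3 each).

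Whether the stage difference itself differed between cultivars was tested by the interaction, the stage difference in 86-1 minus that in L-1-OL-1. It was below 0 for all but 17 of the 176 members, with a median of -0.63 against -0.23 for all tested genes, of which 40.5% were above 0. The interaction was called lower for 34 members and higher for 0, against a background of 13.6% and 8.5% of all tested genes. At an unadjusted p under 0.05 the limma counts were 70 lower and 0 higher, against 10917 of 30020 tested genes in either direction. The count of 34 leaned on many libraries. It was 11 to 15 when any one of 7 libraries was left out (replicates 2 or 3 of 86-1 at 17 DAF, 1 or 2 of 86-1 at 27 DAF, 2 of L-1-OL-1 at 17 DAF, and 2 or 3 of L-1-OL-1 at 27 DAF). In each of these 7 fits the members' share called lower, 6.25% to 8.52%, was just below that of all tested genes, 7.83% to 8.83%, so no excess of calls in the family was seen there; the members' median stayed below that of all tested genes in these fits. For 10 of the 34 members the call was made without any 1 library, among them gene36068, gene26573, gene51880, gene69864, gene35001 and gene53144. Of the 34 members 6 reached 1 FPKM in libraries of L-1-OL-1 alone and 1, gene36068, in libraries of 86-1 alone, so that their membership rests on that cultivar.

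gene69864 shows the pattern of a rise in one cultivar. Its interaction was -1.94 ± 0.42 (adjusted p = 0.00774), with a stage difference of 0.21 ± 0.30 in 86-1 (adjusted p = 0.706) and 2.15 ± 0.30 in L-1-OL-1. gene53144 had 1.03, 1.93 and 2.1 FPKM in 86-1 at 27 DAF and 1.67, 3.05 and 2.9 FPKM in 86-1 at 17 DAF. In L-1-OL-1 it had 2.79, 3.44 and 3.4 FPKM at 27 DAF and 0.802, 0.672 and 1.6 FPKM at 17 DAF, and its interaction was -1.48 ± 0.37 (adjusted p = 0.0153). Its levels were thus higher at 27 DAF in every library of L-1-OL-1, while the libraries of 86-1 overlapped between stages. gene46025, which rose in both cultivars, had an interaction of -0.11 ± 0.46 (adjusted p = 0.883).

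**Figure D4:**
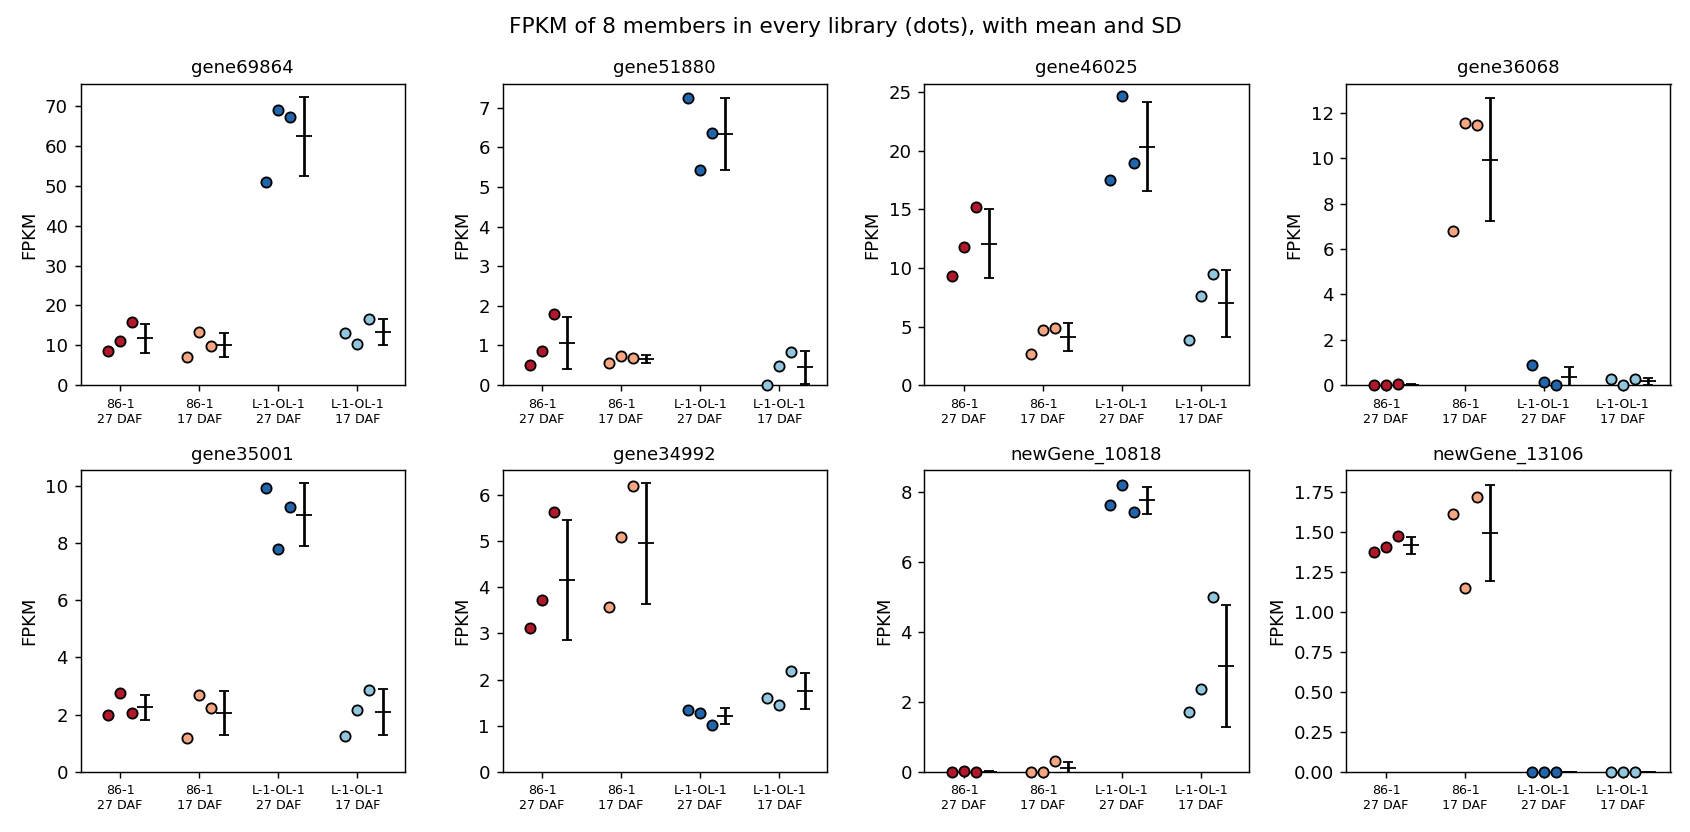
FPKM of 8 PPR genes in every library (dots, 3 per group), with the mean and SD of each group beside them; vertical axes start at 0 and differ between panels. gene69864 and gene51880 are highest in L-1-OL-1 at 27 DAF, gene46025 is higher at 27 DAF in both cultivars, gene36068 is found almost only in 86-1 at 17 DAF, and the lower row holds 2 pairs with the same best match and opposite cultivar differences at 27 DAF.

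All 5 members called higher in 86-1 at 27 DAF belong to pairs with the same best match, of which there are 22 members. Of these 22, limma called 5 higher (22.7%) and 9 lower (40.9%). Of the 154 members with a match of their own it called 0 higher and 64 lower (41.6%). Over all tested genes 21.2% were called higher and 27.1% lower. At an unadjusted p under 0.05, 1 of the 154 was higher and 78 were lower, against 16436 of 30020 tested genes in either direction. In 3 of the 11 pairs the members were called in opposite directions between cultivars at 27 DAF. The first is gene35001 and gene34992, matched over 761 and 735 residues to one PPR superfamily protein. At 27 DAF gene35001 had 1.97, 2.75 and 2.04 FPKM in 86-1 and 9.93, 7.79 and 9.25 FPKM in L-1-OL-1 (-1.62 ± 0.27, adjusted p = 0.000371). gene34992 had 3.12, 3.73 and 5.63 FPKM in 86-1 and 1.33, 1.28 and 1.01 FPKM in L-1-OL-1 (1.2 ± 0.25, adjusted p = 0.00192). At 17 DAF gene34992 was again higher in 86-1, by 1.1 ± 0.25 (adjusted p = 0.00615, and 0.0594 with replicate 1 alone for L-1-OL-1), and gene35001 differed by -0.02 ± 0.27 (adjusted p = 0.962).

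The second pair is gene28902 and gene28895. gene28902 had 0.233, 0.278 and 2.18 FPKM in 86-1 at 27 DAF and 6.41, 6.65 and 6.76 FPKM in L-1-OL-1 at 27 DAF (-2.15 ± 0.44, adjusted p = 0.00165). gene28895 had 1.21, 1.81 and 3.1 FPKM in 86-1 at 27 DAF and 0, 0.0879 and 0 FPKM in L-1-OL-1 at 27 DAF (1.52 ± 0.26, adjusted p = 0.000453). gene28895 was thus near 0 in L-1-OL-1 while its partner was at its highest there, and the same held for gene28895 at 17 DAF, with 0.856, 2.22 and 1.87 FPKM in 86-1 and 0.0178, 0 and 0.333 FPKM in L-1-OL-1 (1.22 ± 0.26, adjusted p = 0.0039). With a pseudocount of 0.25 the differences of gene28895 were 2.97 at 27 DAF and 2.41 at 17 DAF.

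The third pair, Helianthus_annuus_newGene_10818 and Helianthus_annuus_newGene_13106, was split almost completely by cultivar. Both are described by the Arabidopsis locus At4g39620 and as chloroplastic-like; in Arabidopsis this locus is needed for embryo development, and its maize counterpart PPR5 binds and protects a plastid transfer RNA precursor. Helianthus_annuus_newGene_10818 had 0, 0.019 and 0 FPKM in 86-1 at 27 DAF and 7.64, 8.22 and 7.45 FPKM in L-1-OL-1 at 27 DAF (-3.12 ± 0.27, adjusted p = 1.88e-06). At 17 DAF it had 0, 0 and 0.30 FPKM in 86-1 and 1.71, 2.37 and 5.02 FPKM in L-1-OL-1 (-1.8 ± 0.27, adjusted p = 0.000281). Helianthus_annuus_newGene_13106 had 1.37, 1.41 and 1.48 FPKM in 86-1 at 27 DAF and 1.61, 1.15 and 1.72 FPKM in 86-1 at 17 DAF, and it was listed at 0 in all 6 libraries of L-1-OL-1. With a pseudocount of 0.25 the differences of Helianthus_annuus_newGene_10818 were -4.97 at 27 DAF and -3.21 at 17 DAF. The call of Helianthus_annuus_newGene_13106 as higher in 86-1 was made at both stages (adjusted p = 1.9e-05 at 27 DAF and 3.38e-05 at 17 DAF). Each gene of the pair reached 1 FPKM in libraries of 1 cultivar alone, and gene28895 likewise in libraries of 86-1 alone, so their membership rests on the cultivar where they are high. The matches covered 284 and 152 residues; whether the genes are separate loci is not known from these files.

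In a further pair gene45098 and gene45095 differed the same way. They were named after their values were seen because only 5 members were called higher at 27 DAF. gene45098 averaged 1.26 ± 0.295 FPKM in 86-1 and 0.565 ± 0.174 FPKM in L-1-OL-1 at 27 DAF (0.52 ± 0.19, adjusted p = 0.0375). gene45095 averaged 1.1 ± 0.271 FPKM in 86-1 and 0.473 ± 0.184 FPKM in L-1-OL-1 (0.51 ± 0.18, adjusted p = 0.0329). Each of these calls was lost in 4 of the 12 fits without 1 library, and under quantile normalization the differences were 0.27 and 0.22 (adjusted p = 0.227 and 0.308). At 17 DAF their differences were 1.0 ± 0.19 and 1.05 ± 0.18 (adjusted p = 0.00181 and 0.000823), and these calls were made in every such fit but not with replicate 1 alone for L-1-OL-1 at 17 DAF (adjusted p = 0.109 and 0.0508).

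For the members described by an Arabidopsis locus something is known of the counterpart. These 14 were named in place of members with a protein name, of which there were 0. Of the 14, limma called 6 higher at 27 than at 17 DAF in L-1-OL-1 and 0 lower, against 20.4% and 22.3% of all tested genes. At an unadjusted p under 0.05, 8 of the 14 were higher and 0 lower, against 15398 of 30020 tested genes in either direction. At 27 DAF 5 were called lower and 1 higher in 86-1, against 27.1% and 21.2% of all tested genes; counts this small do not set the 14 apart. Helianthus_annuus_newGene_11205 is described by At1g10270, the locus of GRP23, a nuclear-coded PPR protein needed for early embryo development in Arabidopsis. It had 7.88, 3.16 and 10.2 FPKM in L-1-OL-1 at 27 DAF and 1.4, 2.31 and 1.09 FPKM at 17 DAF (1.55 ± 0.34, adjusted p = 0.00387). Its libraries at 27 DAF were far apart, with replicate 2 lowest, yet all lay above those of 17 DAF. In 86-1 it had 2.42, 3.28 and 4.1 FPKM at 27 DAF and 3.37, 3.46 and 4.01 FPKM at 17 DAF (-0.13 ± 0.34, adjusted p = 0.862).

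Several of these counterparts act in RNA editing, the change of single cytidines to uridines in organelle transcripts. Helianthus_annuus_newGene_24104 and Helianthus_annuus_newGene_3174 are both described by At2g22410, the locus of SLO1, which edits mitochondrial transcripts in Arabidopsis. Helianthus_annuus_newGene_24104 had 10.7, 10.7 and 10.1 FPKM in L-1-OL-1 at 27 DAF and 3.34, 6.14 and 5.46 FPKM at 17 DAF (0.98 ± 0.26, adjusted p = 0.0102). At 27 DAF in 86-1 it had 2.26, 3.04 and 4.54 FPKM, lower by -1.46 ± 0.26 than in L-1-OL-1 (adjusted p = 0.000583). Helianthus_annuus_newGene_3174 had 2.71, 1.83 and 2.03 FPKM in L-1-OL-1 at 27 DAF and 1.02, 1.02 and 0.75 FPKM at 17 DAF (0.72 ± 0.19, adjusted p = 0.0101, and 0.086 with replicate 1 alone for 17 DAF). At 27 DAF its cultivar difference was -0.07 ± 0.19 (adjusted p = 0.785).

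Helianthus_annuus_newGene_27369 is described by At1g11290, the locus of CRR22, a chloroplast editing factor in Arabidopsis. It had 3.91, 3.47 and 4.48 FPKM in L-1-OL-1 at 27 DAF and 0.564, 1.22 and 2.62 FPKM at 17 DAF (1.09 ± 0.30, adjusted p = 0.0124, and 0.0612 when only the 6 libraries of L-1-OL-1 were fitted). With replicate 1 alone for 17 DAF the difference was 1.66. Helianthus_annuus_newGene_16861 and Helianthus_annuus_newGene_2933 are described by At5g52630, the locus of the mitochondrial editing factor MEF1. Helianthus_annuus_newGene_16861 had 2.72, 3.81 and 4.03 FPKM in 86-1 at 17 DAF and 7.25, 16.1 and 14 FPKM in L-1-OL-1 at 17 DAF (-1.52 ± 0.37, adjusted p = 0.00945, and 0.319 with replicate 1 alone for L-1-OL-1). At 27 DAF it had 4.73, 5.3 and 11.4 FPKM in 86-1 and 21.5, 11.4 and 20.2 FPKM in L-1-OL-1 (-1.24 ± 0.37, adjusted p = 0.016), where replicate 3 of 86-1 met replicate 2 of L-1-OL-1 and 4 fits without 1 library lost the call. Its partner Helianthus_annuus_newGene_2933 had no call in any comparison, with cultivar differences of -0.21 ± 0.21 at 27 DAF and -0.28 ± 0.21 at 17 DAF (adjusted p = 0.451 and 0.381).

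The other described loci were At5g28460, At1g06270, At2g20710 and At2g01390, besides At3g04760 above. Helianthus_annuus_newGene_24983 and Helianthus_annuus_newGene_12618, both like At5g28460, were lower in 86-1 at 27 DAF by -1.0 ± 0.21 and -0.59 ± 0.16 (adjusted p = 0.00178 and 0.00798). Helianthus_annuus_newGene_12618 also rose in L-1-OL-1, with 1.5, 1.57 and 1.22 FPKM at 27 DAF and 0.33, 0.248 and 0.382 FPKM at 17 DAF (0.88 ± 0.16, adjusted p = 0.000992; with a pseudocount of 0.25 the difference was 1.56). The genes of At1g06270 (Helianthus_annuus_newGene_30541), At2g20710 (Helianthus_annuus_newGene_6424) and At2g01390 (Helianthus_annuus_newGene_26371) had no call in any comparison. Helianthus_annuus_newGene_30541 was at 8.06, 10.8 and 10.5 FPKM in 86-1 at 27 DAF and 7.3, 9.45 and 6.22 FPKM in L-1-OL-1 at 27 DAF.

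Members of the highest mean level did not all follow the family. The highest, gene22177, averaged 24.9 FPKM and had 16.5 ± 3.22 FPKM in 86-1 at 27 DAF, 33.3 ± 10.2 in 86-1 at 17 DAF, 25.6 ± 6.83 FPKM in L-1-OL-1 at 27 DAF and 24.2 ± 9.12 FPKM in L-1-OL-1 at 17 DAF (SD, n = 3 each). Its largest difference, -0.94 ± 0.34 between stages in 86-1, missed the threshold (adjusted p = 0.0743). gene67859 had 16 ± 3.67 FPKM at 27 DAF and 13.1 ± 3.97 FPKM at 17 DAF in 86-1, and 15.8 ± 1.36 FPKM at 27 DAF and 19.6 ± 2.42 FPKM at 17 DAF in L-1-OL-1, and its cultivar difference at 27 DAF was 0.00 ± 0.27 (adjusted p = 1). gene1745, gene9910, gene27670 and gene73149 also had no call in any of the 5 tests, so 6 of the 10 members of the highest mean level had none. Of the other 4, gene69864 and gene46025 are described above, gene68806 was lower in 86-1 at 27 DAF by -1.21 ± 0.34 (adjusted p = 0.0114, and 0.0544 without replicate 1 of 86-1 at 27 DAF), and gene25769 was lower there by -1.37 ± 0.29 (adjusted p = 0.00196). Over the whole family 75 of the 176 members were called in none of the 5 tests.

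The likeness of members to each other was described by Pearson's r between a member's 12 log2 values and the median of all members in each library, without a test, since members share libraries and enter that median. The median r was 0.74; it was at least 0.8 for 65 members, at least 0.5 for 129 and below 0 for 14. Most like the family were gene40671, gene79150, gene60637, gene59535 and gene39668, with r of 0.95 to 0.96. gene40671 may stand for them, with 1.49, 2.32 and 2.26 FPKM in 86-1 at 27 DAF, 1.73, 2.45 and 2.11 in 86-1 at 17 DAF, 4.49, 4.66 and 4.32 FPKM in L-1-OL-1 at 27 DAF and 1.23, 1.66 and 2.79 FPKM in L-1-OL-1 at 17 DAF. Least like it were Helianthus_annuus_newGene_13106 (-0.42), gene38782 (-0.41), gene68152 (-0.36), gene34992 (-0.34) and gene28895 (-0.24). Of these 5, 3 are the members of the pairs above that were higher in 86-1. gene68152 ranged from 0.523 FPKM in replicate 3 to 6.91 FPKM in replicate 1 of L-1-OL-1 at 27 DAF, and gene38782 had no call, with a stage difference of -0.56 ± 0.22 in L-1-OL-1 (adjusted p = 0.0563).

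Most members of each class had positive stage differences in L-1-OL-1, where 20.4% of all tested genes were called higher. Among the 71 members at 1 FPKM or more in all libraries 64 were above 0, with a median difference of 0.50 and 21 called higher. Among the 25 members with a mean of at least 5 FPKM 21 were above 0 (median 0.56, 6 or 24.0% called higher, near the background), and among the 85 with a mean under 2 FPKM 76 were (median 0.50, 30 called higher). The 20 members with a match under 300 residues and the 156 with a longer one had medians of 0.48 and 0.56. The 88 members described as PPR superfamily protein had a median of 0.60 with 35 called higher, and the 29 described as PPR protein had 0.56 with 14 called higher. The 12 with the shortest wording, Pentatricopeptide repeat-containing protein, had a median of 0.34 with 2, or 16.7%, called higher, below the background.

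Other genes of organelle gene expression were described by words in their annotation. In L-1-OL-1, 9 of 15 genes of organelle intron splicing were called higher at 27 than at 17 DAF and 0 lower (median 0.80), as were 5 of 11 organelle RNA nucleases (median 0.78), against the same 20.4% and 22.3% of all tested genes. Of 15 genes of organelle RNA polymerases 4 were called higher and 1 lower (median 0.63), and of 30 organelle ribosomal proteins 3 were higher and 0 lower (median 0.37). The 2 editing cofactors had no call (median 0.53). Lists of 17 DYW domain and editing factors and 21 transcription termination factors, whose words were added after the annotation was read, had 6 and 5 genes called higher and 0 lower (medians 0.51 and 0.31). These were 35.3% of the DYW and editing list and 23.8% of the termination factors, the latter near the background. By the same limma fit at an unadjusted p under 0.05, the counts of higher and lower were 10 and 0 for intron splicing, 6 and 1 for the nucleases, 7 and 1 for the RNA polymerases, 5 and 0 for the ribosomal proteins, 1 and 0 for the cofactors, 7 and 0 for the DYW and editing list and 6 and 0 for the termination factors. Of all 30020 tested genes 15398 were under that unadjusted p in either direction.

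Genes of the complexes that organelle transcripts help to build had negative medians in L-1-OL-1. Of 72 respiratory chain genes 7 were called higher and 25 lower at 27 than at 17 DAF (median -0.54), and of 64 photosynthesis genes 3 were higher and 18 lower (median -1.13). Called lower were thus 34.7% and 28.1% of these lists, against 22.3% of all tested genes. The photosynthesis genes took 0.0219% to 0.160% of the FPKM total in L-1-OL-1 at 17 DAF and 0.0395% to 0.0797% at 27 DAF, so the stages overlapped in this share. In 86-1 the stage medians were -0.03 for intron splicing, -0.22 for nucleases, -0.56 for the respiratory chain and 0.35 for photosynthesis. At 27 DAF 86-1 had 0 genes of intron splicing called higher and 6 lower, 0 and 4 of the nucleases, and 19 and 9 of the respiratory chain. Over all tested genes 21.2% were called higher and 27.1% lower. At an unadjusted p under 0.05 by limma these counts were 0 and 8, 0 and 5, and 22 and 10, against 16436 of 30020 tested genes in either direction. The tetratricopeptide repeat genes, 281 genes whose repeat is of a related fold, had 84 called higher and 16 lower between stages in L-1-OL-1 (median 0.43), and 22 higher and 102 lower in 86-1 at 27 DAF (median -0.49). Of the DYW and editing list 12 genes are also in this list, since their descriptions read tetratricopeptide-like helical, and the files do not say whether they hold the PPR motif; without them 79 of 269 were called higher and 16 lower in L-1-OL-1.

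**Figure D5:**
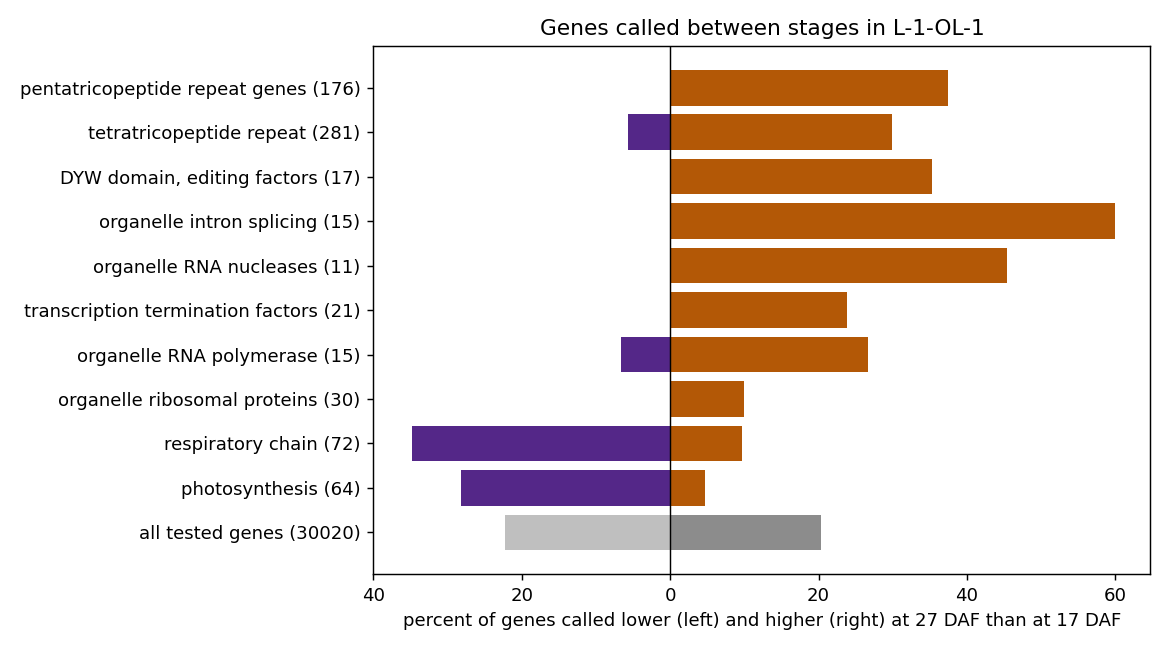
Percent of genes called lower (bars to the left) and higher (bars to the right) at 27 than at 17 DAF in L-1-OL-1, for the PPR genes, 9 other lists of genes and all tested genes, with the number of tested genes in brackets. PPR genes have 66 of 176 called higher and 0 lower, intron splicing genes 9 of 15 and 0, and respiratory chain genes 7 of 72 higher and 25 lower.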

How the data were processed

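RNA from seeds was sequenced on an Illumina NovaSeq, per the labels' protocols. The authors deposited FPKM values per gene and a table with each gene's best protein match, whose match score was not used further. Per the submitters' processing notes, the tools were DESeq2 1.4.5, RSEM 1.2.12, Bowtie2 2.2.5 and HISAT2 2.0.4, given with no role; a genome build is not named there. The annotation table holds 65535 lines and genes it does not list could not become members.

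Genes with at least 1 FPKM in 3 or more of 12 libraries (30020) were tested on log2(FPKM + 1) with limma 3.58.1 in R 4.3.3, in 1 fit with a mean per group and a mean-variance trend. P-values are 2-sided and Benjamini-Hochberg adjusted over these genes, with a threshold of 0.05; the fit was tested on simulated data. Alternatives were another pseudocount, other filters, scalings and fits, a replicate block and each library left out.

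The members, lists, rules and tests were chosen with earlier results of these data known. Per contrast, the naming rule takes up to 8 called members per direction with the largest differences, no overlap between libraries and a mean of at least 2 FPKM in the higher group (no such overlap rule for the interaction). It adds the 10 members of the highest mean level, those with a protein name in place of an Arabidopsis locus (0 found, so the 14 with a locus were named instead once the annotation was read), the partners of the same best match, and the 5 most and 5 least like the family; 49 genes met it and most are printed. Words for mTERF, RAP and octotricopeptide proteins and for endosperm and seed coat found 0 genes, and 2 lists were added after the annotation was read. Same-numbered libraries did not deviate together in every pair (r of -0.226 to 0.459), so replicate numbers were not taken as pairs.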

Additional observations from a re-analysis of the deposited data

Results flagged for a closer look

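The interaction test found the stage difference to differ between the cultivars for 34 of the 176 PPR genes, and for each of them the difference of 27 minus 17 DAF was lower in 86-1 than in L-1-OL-1. Called lower were thus 19.3% of members against 13.6% of all tested genes, and called higher were 0 members against 8.5%. The count of 34 fell to 11 to 15 without any one of 7 libraries, with a share just below that of all tested genes. Of the 34 genes 6 reached 1 FPKM in libraries of L-1-OL-1 alone and 1 in libraries of 86-1 alone, so that their membership rests on that cultivar. The interactions, on the log2(FPKM + 1) scale, were -3.54 for gene36068, -2.32 for gene26573, -2.11 for gene51880 and -1.94 for gene69864. They were -1.68 for Helianthus_annuus_newGene_11205, -1.60 for gene35001, -1.56 for gene68806 and -1.48 for gene53144. The calls of Helianthus_annuus_newGene_11205 and gene68806 were lost in 6 and 8 of the 12 fits without 1 library (adjusted p up to 0.0751 and 0.0957). With replicate 1 alone for L-1-OL-1 at 17 DAF their adjusted p was 0.0550 and 0.161. That of Helianthus_annuus_newGene_11205 was also lost under median-of-ratios scaling, and that of gene68806 without a filter on low values (0.0535). The calls of the other 6 genes were made in each of the 12 fits without 1 library. In 86-1 gene68806 had 8.4, 14.4 and 18 FPKM at 27 DAF and 16, 29.4 and 25.7 FPKM at 17 DAF, and in L-1-OL-1 it had 22.4, 36.8 and 37 FPKM at 27 DAF and 23.2, 14.4 and 16.8 FPKM at 17 DAF.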

How the results depend on the processing

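The family's median difference less that of all tested genes kept its sign under the 20 alternatives run for 27 minus 17 DAF in L-1-OL-1 and for 86-1 minus L-1-OL-1 at 27 DAF, and under the 19 run for the interaction. Its shift moved by more than the spread between libraries in these cases. In L-1-OL-1 it was 0.78 with a pseudocount of 0.25 and 0.67 after quantile normalization. At 27 DAF it was -0.60 with that pseudocount, -0.54 without a filter on low values, -0.51 with a mean of at least 2 FPKM and -0.57 after quantile normalization. In the interaction it was -0.66, -0.57 and -0.52 for that pseudocount, no filter and quantile normalization, and -0.24 with replicate 1 alone for L-1-OL-1 at 17 DAF. In 86-1 it was -0.052 without a filter and 0.23 with a mean of at least 2 FPKM. At 17 DAF it was -0.14 with replicate 1 alone for L-1-OL-1. The causes were not tested.

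Asking for a mean of at least 2 FPKM left 91 members and gave 2 higher and 3 lower at 17 DAF, 1 higher and 39 lower at 27 DAF, 1 lower in 86-1, 36 higher in L-1-OL-1 and 20 lower in the interaction. Median-of-ratios scaling gave 17 higher and 17 lower at 17 DAF, 11 higher at 27 DAF, 22 higher in 86-1, 1 lower in L-1-OL-1 and 1 higher in the interaction. Quantile normalization gave 16 higher and 19 lower at 17 DAF, 25 higher and 1 lower in 86-1, 128 higher in L-1-OL-1 and 69 lower in the interaction. No filter gave 2 higher and 1 lower in 86-1, against 3.28% and 9.93% of all genes then tested. The lower pseudocount gave 65 higher and 1 lower in L-1-OL-1, against 19.3% and 24.1% of all tested genes. Fits of the compared libraries alone gave 8 higher and 3 lower at 17 DAF, against 9.31% and 7.80% of all tested genes. They gave 2 and 1 in 86-1 (against 5.35% and 11.8%) and 57 and 1 in L-1-OL-1 (against 15.4% and 17.2%). With replicate 1 alone for L-1-OL-1 at 17 DAF the counts at 17 DAF were 3 higher and 2 lower.

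A replicate block gave 11 higher and 8 lower at 17 DAF, against 16.0% and 12.2% of all tested genes. In L-1-OL-1 it gave 82 higher and 1 lower, against 23.3% and 24.2%. It moved the counts of the other comparisons by less than 1.5 times, and the numbers pair no libraries here. The limit of 300 members was not reached, so the alternative without it is the same analysis. Leaving out single libraries gave 8 to 18 members higher and 4 to 14 lower at 17 DAF. The counts were 3 to 7 higher and 47 to 78 lower at 27 DAF, and 1 to 4 higher and 1 to 10 lower in 86-1. They were 38 to 83 higher and 0 to 1 lower in L-1-OL-1, and 0 to 1 higher and 11 to 49 lower in the interaction. Of all tested genes these fits called 10.1% to 19.2% higher and 8.02% to 21.7% lower at 17 DAF. At 27 DAF they called 17.2% to 24.3% higher and 20.1% to 30.3% lower. Their shares were 2.84% to 6.61% and 6.31% to 21.2% in 86-1, and 14.6% to 24.7% and 16.5% to 25.1% in L-1-OL-1. For the interaction they were 5.58% to 14.9% and 7.83% to 18.2%. The shift at 17 DAF was -0.030 to 0.13 in these fits. Of 78 calls of the genes that the rule names, 59 were made in every such fit. Read depth is unknown from FPKM, and many members are near 1 FPKM, where the pseudocount compresses differences.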
